A study of Rattus norvegicus with 22 samples.

Results

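Retinoid binding, storage and turnover genes were followed in rat liver through 9 genes, taken by their gene names on the array. The array carried 10 probes for them, and 8 of the 9 genes were among the 17100 genes tested. Rbp4 and Ttr encode the plasma carrier of retinol and its partner transthyretin, and Rbp2 and Rbp7 encode binding proteins inside cells. Lrat encodes the enzyme that esterifies retinol for storage. Rdh10, Dhrs9 and Aldh1a1 encode enzymes on the way from retinol through retinal to retinoic acid, and Cyp26a1 encodes the enzyme that breaks retinoic acid down.

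As background, the liver takes up retinoids from the diet, stores most of the body's vitamin A as retinyl esters in its stellate cells, and secretes retinol bound to Rbp4 from hepatocytes. Beta-carotene of plants is a precursor of retinal. Retinoic acid binds nuclear receptors, and the Cyp26a1 gene is known as one that retinoic acid switches on in liver.

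Liver total RNA of each of 22 rats was hybridized to an Agilent two-colour array of its own. The rat's RNA carried Cy5, and a common reference of liver RNA from healthy rats outside the experiment carried Cy3. The rats were male Sprague–Dawley rats, 8 weeks old at the start, and all received a semi-synthetic diet. Against the control diet (CD), the BASE-diet (BD) had salmon fat (6%) for most of the lard, more rapeseed oil and less wheat starch. It also held pureed giant pumpkin, which brings beta-carotene, and a hydrolysed extract of Tilia cordata (linden) flowers, at 8% each, and probiotic Lactobacillus acidophilus and Bifidobacterium bacteria. CD 3 and BD 3 were fed for 3 months (5 rats each), and CD 14 and BD 14 for 14 months (6 rats each). The design cannot tell apart which ingredient a diet difference belongs to, nor feeding time from age.

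Every value called a log2 ratio is the log2 of Cy5 over Cy3, so 0 means equal signal in both dyes. The dyes were not swapped on any array. A probe's dye bias thus cannot be told apart from a level above or below the reference. The scanner software flags spots whose Cy5 signal is well above background, and a probe takes this flag where at least 0.5 of its spots have it. The share of spots so flagged ran from 52.4% to 93.6% over the 22 arrays, and the number of arrays and this signal limit the precision of all values.

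The main probes of 6 of the 9 genes were well above background on every array, namely those of Rbp2, Rbp4, Lrat, Aldh1a1, Rdh10 and Ttr. The Rbp7 probe was so on 21 arrays and the Cyp26a1 probe on 16. The Dhrs9 probe was so on 10 arrays and on every array of no group, so Dhrs9 was not tested, and neither was a dimmer Lrat probe (9 arrays). Cyp26a1 was tested only because of BD 14. It was well above background on 6 of 6 BD 14 arrays, against 3 of 6 in CD 14, 4 of 5 in BD 3 and 3 of 5 in CD 3. All 10 hepatocyte markers listed were well above background on every array, the brightest being Tf, which fits the labelled tissue.

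**Figure D1:**
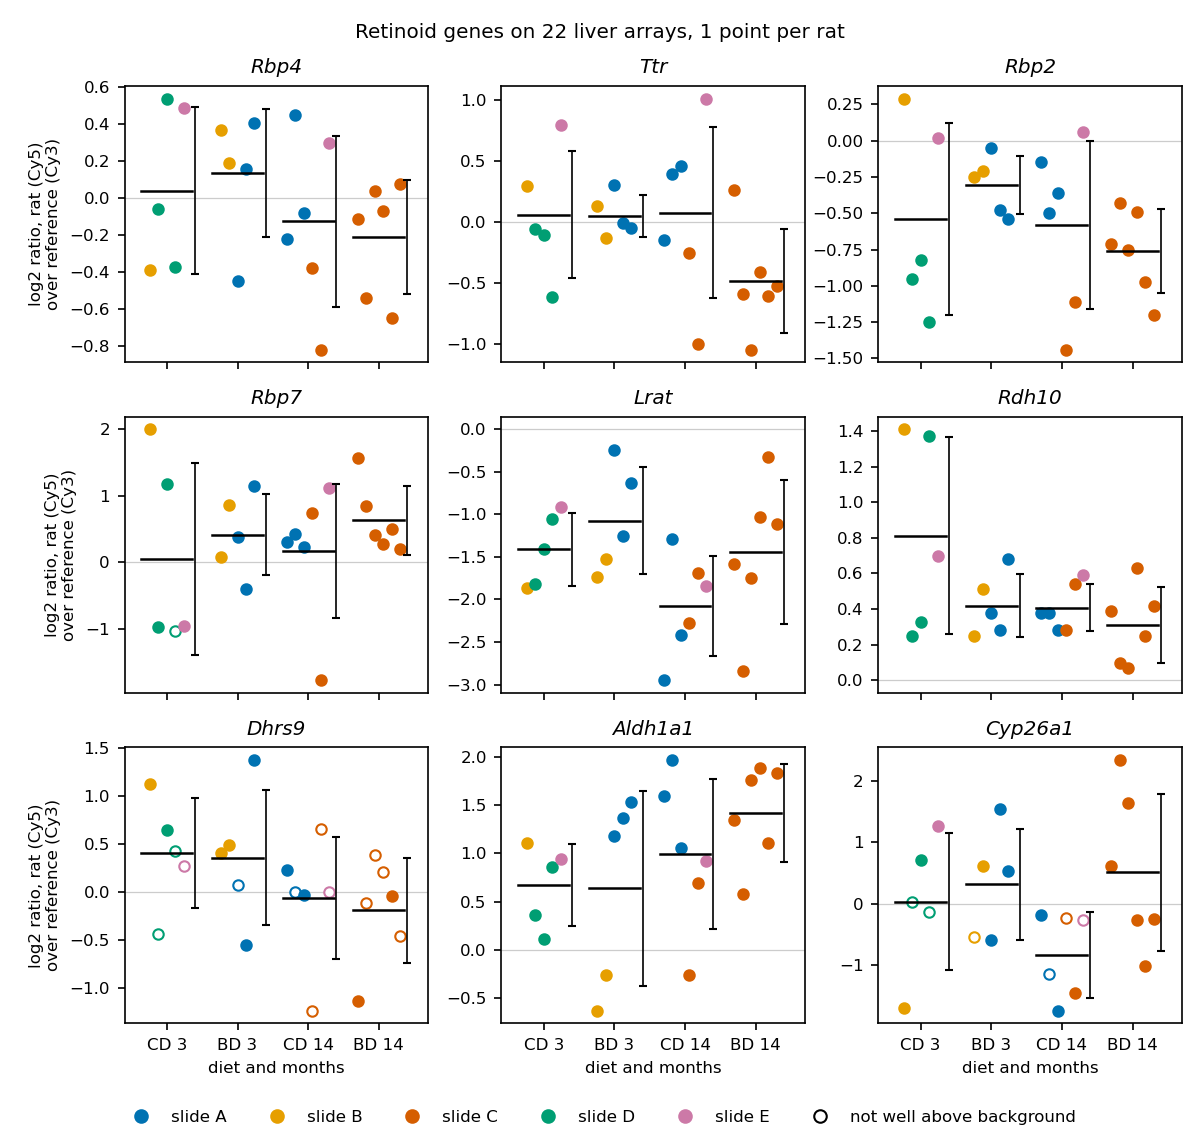
Log2 ratio of Cy5 to the common reference of the 9 genes on each of the 22 arrays, by diet (CD control, BD BASE-diet) and months, with points for single rats and bars for mean and SD. The groups of every gene overlap, and Cyp26a1 reaches 2.35 in BD 14.

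In limma's fit over 19434 probes, none of the 8 genes tested passed an adjusted p of 0.05 in any of the 4 comparisons or in the test of whether the diet difference changed with time. The share of all probes that did so was 0% in each. For BD 3 against CD 3, 0 of 8 genes had an unadjusted p under 0.05, where 7.11% of all probes did. For BD 14 against CD 14 it was 1 of 8, Cyp26a1, where 4.60% of all probes did. For CD 14 against CD 3 it was 0 of 8 (10.1% of all probes), and for BD 14 against BD 3 also 0 of 8 (7.44%). For the change of the diet difference with time it was 0 of 8 (4.80%). Cyp26a1 passed the filter only through BD 14, the group where it was high, so its count supports nothing. Each member count lay near what all probes gave, so none is a result about these genes. Tukey's test after an analysis of variance called 0 of the 8 genes in all 4 comparisons, also with the analysis of variance unadjusted.

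The directions were mixed too. BD 3 was above CD 3 for 5 genes and below for 3, with a median difference of 0.17 on the log2 scale beside 0.031 over all probes. BD 14 was above CD 14 for 4 genes and below for 4 (median 0.17 beside 0.046 over all probes). CD 14 was above CD 3 for 3 and below for 5 (median −0.10 beside 0.029), and BD 14 was above BD 3 for 3 and below for 5 (median −0.23 beside 0.072). The diet difference was higher at 14 than at 3 months for 5 genes and lower for 3 (median 0.19 beside 0.022). The log2 ratios of the groups overlapped for all 8 genes in all 4 comparisons. They did not overlap for 0.756% of all probes in BD 3 against CD 3, 0.767% in BD 14 against CD 14, 2.26% in BD 14 against BD 3 and 0.515% in CD 14 against CD 3.

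**Figure D2:**
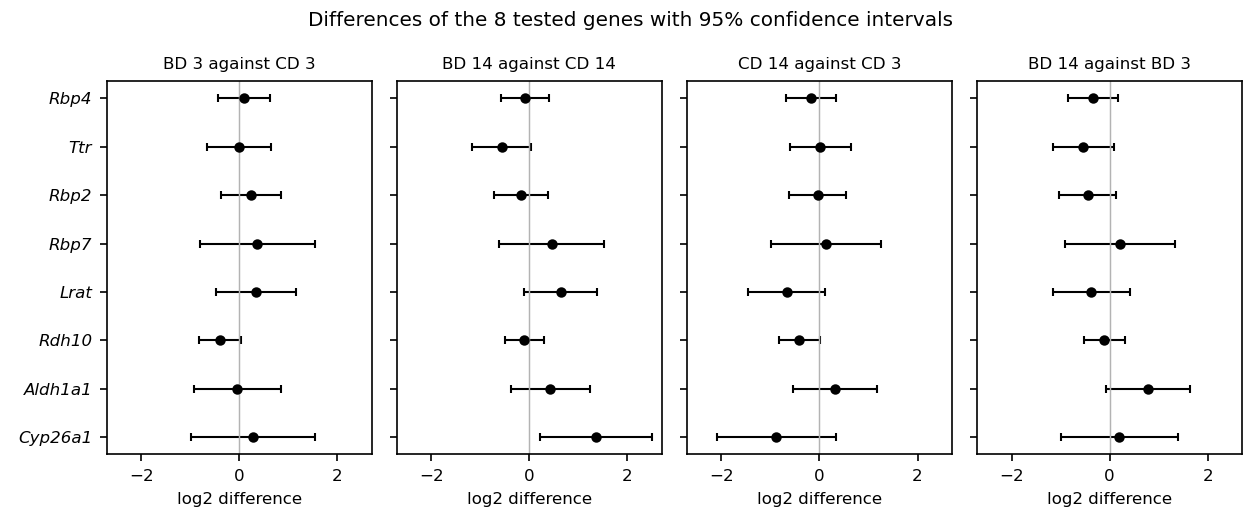
Log2 difference of each of the 8 genes tested in the 4 comparisons, with 95% confidence intervals from limma. The interval of Cyp26a1 in BD 14 against CD 14, from 0.21 to 2.50, is the only one drawn that does not reach 0. Cyp26a1 passed the detection filter only through BD 14, the group where it was high, so this interval supports nothing.

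The arrays lay on 5 slides, lettered A to E here, and the slides were not balanced over the groups. Slide C held all 6 BD 14 arrays and 2 CD 14 arrays, and slide D held 3 CD 3 arrays only. On slide A lay BD 3 rats 3 to 5 with CD 14 rats 1 to 3, on slide B CD 3 rat 1 with BD 3 rats 1 and 2, and on slide E CD 3 rat 5 with CD 14 rat 6. With the groups in the fit, limma's F test of the slides passed for 184 probes after adjustment, and for 3671 (18.9%) the unadjusted p was under 0.05. Among the 8 genes, Rbp2 passed it (adjusted p 0.0432), and Aldh1a1 (0.0673) and Ttr (0.11) had an unadjusted p under 0.05. Most differences between groups described below are therefore also given with the slide as a block, or within a slide that held both groups. The blocked value of BD 14 against CD 14 rests on the 2 CD 14 arrays of slide C. Since slide D held no other group, blocked comparisons with CD 3 rest on CD 3 rats 1 and 5 for their CD 3 side. The same holds for the blocked change of the diet difference with time. The block changed which genes had an unadjusted p under 0.05. They were Aldh1a1 alone in BD 3 against CD 3 (11.0% of all probes) and in BD 14 against BD 3 (4.64%), and Aldh1a1 and Rbp2 in BD 14 against CD 14 (7.80%) and for the change of the diet difference with time (11.1%). In CD 14 against CD 3 there were 0 of 8 (6.01%). None of these passed the adjusted test.

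Among the carriers, Rbp4 (A_64_P058087, chr1:242443795-242443854 of rn4, minus strand) was bright and even. Its CD 3 rats had a mean log2 ratio of 0.04 ± 0.45 (SD, n = 5), BD 3 one of 0.14 ± 0.35 (SD, n = 5), CD 14 one of −0.13 ± 0.46 (SD, n = 6) and BD 14 one of −0.21 ± 0.31 (SD, n = 6). The 22 values ran from −0.82 in a CD 14 rat to 0.54 in a CD 3 rat, and the groups overlapped. Neighbours in this order of means differed by less than their SDs. The largest of its differences, BD 14 against BD 3, was −0.34 with a standard error of 0.25 (adjusted p 0.769), and it was 0.26 with the slide as a block.

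Ttr (A_64_P143865, chr18:12413621-12413680, plus strand) encodes transthyretin, which carries Rbp4 and thyroid hormone in plasma. In CD 3 its log2 ratios were 0.29, −0.06, −0.11, −0.62 and 0.79 for rats 1 to 5, and in BD 3 they were 0.13, −0.13, 0.30, −0.01 and −0.05. In CD 14 they ran from −1.0 over a median of 0.12 to 1.01, and in BD 14 from −1.05 over −0.56 to 0.26. Most BD 14 rats were low, 5 of 6 below 0, but CD 14 rat 5 was as low as any of them except BD 14 rat 3. The BD 14 mean was −0.49 ± 0.42 (SD, n = 6) and the CD 14 mean 0.07 ± 0.70 (SD, n = 6). They differed by −0.56 (standard error 0.29, limma adjusted p 0.952). Against BD 3 the BD 14 mean was lower by −0.54 (standard error 0.30, adjusted p 0.723). The 2 lowest values lay on slide C, which all BD 14 rats shared. Within that slide BD 14 was above CD 14 by 0.14, and with the slide as a block the differences were 0.14 and, against BD 3, 0.35. The highest values, 1.01 and 0.79, were those of the 2 arrays of slide E, 1 of each control group. Between the diets at 3 months Ttr differed by −0.01 (standard error 0.31), and between the times on control diet by 0.02 (standard error 0.30).

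Rbp2 (A_64_P096356, chr8:103685686-103685745, plus strand) encodes the cellular retinol-binding protein best known from the small intestine. In CD 3 its log2 ratios were 0.29, −0.95, −0.82, −1.25 and 0.02, and in BD 3 they were −0.25, −0.21, −0.05, −0.48 and −0.54. In CD 14 they ran from −1.44 over −0.43 to 0.06, and in BD 14 from −1.20 over −0.73 to −0.43. The lowest values of CD 3, CD 14 and BD 14 lay on slides C and D, and BD 3 had no array there. Its processed Cy5 signal was 684 to 1650 on the 11 arrays of slides C and D, and 1550 to 4920 on the 11 arrays of slides A, B and E. The 3 CD 3 rats on slide D had 686 to 763, while the CD 3 rats on slides B and E had 2340 and 3740. The 2 CD 14 rats on slide C had 684 and 776, while the other 4 CD 14 rats had 2610 to 4920. Slides and groups cannot be told apart where they coincide, and what differs between the slides was not tested.

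**Figure D3:**
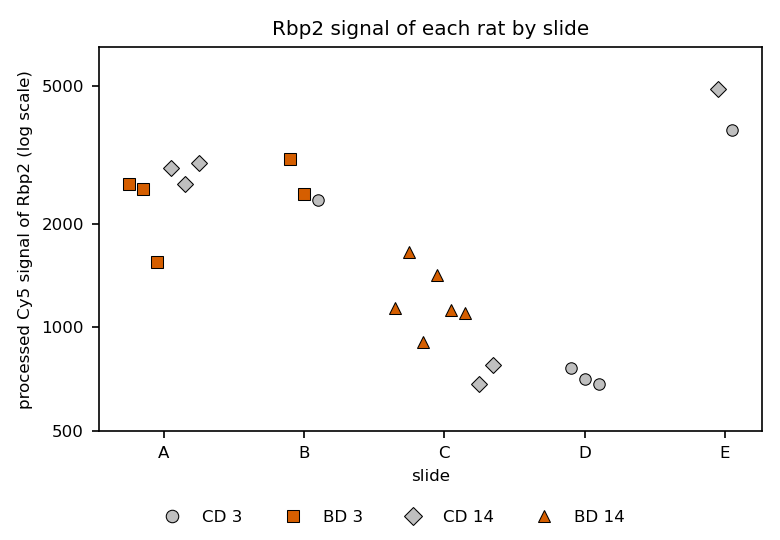
Processed Cy5 signal of Rbp2 (log scale) on each of the 22 arrays, by slide (A to E) and group, each point 1 rat. The 11 arrays of slides C and D lie between 684 and 1650, and the 11 arrays of slides A, B and E between 1550 and 4920.

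The comparisons of Rbp2 turned with this. BD 14 against CD 14 gave −0.17 (standard error 0.27, adjusted p 0.959) over all arrays, and 0.52 both within slide C and with the slide as a block (limma unadjusted p 0.0366). BD 3 against CD 3 gave 0.24 (standard error 0.30, adjusted p 0.914) over all arrays, −0.52 within slide B and −0.32 with the block. BD 14 against BD 3 gave −0.45 (standard error 0.28, adjusted p 0.745) over all arrays and 0.62 with the block, and no slide held both groups. Between the times on control diet Rbp2 differed by −0.04 (standard error 0.28), by 0.04 within slide E and by −0.22 with the block. Of 6 markers of intestinal epithelium, Cdx2, Si and Vil1 did not pass the detection filter. Fabp2 (median Cy5 409 to 771 by group) and Lct (90.8 to 124) were above background on every array, as was Apoa4, the brightest, which rat liver also makes. The summed Cy5 signal of the list was 54600 to 179000 in CD 3, 71400 to 132000 in BD 3, 65400 to 146000 in CD 14 and 54100 to 129000 in BD 14, with 3 to 6 of its 6 genes above background on an array. Apoa4 made up nearly all of this sum, with median Cy5 signals of 145000, 115000, 102000 and 74400 in these groups. The sum therefore says little about the other genes of the list.

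Rbp7 (A_44_P1040207, minus strand) encodes a cellular retinoid-binding protein known from fat and endothelium. Its probe covers 567 bases of chr5:166530940-166531506 with 60 bases, so it joins sequence that is apart in the genome, which is why it is shown:
Rbp7 probe: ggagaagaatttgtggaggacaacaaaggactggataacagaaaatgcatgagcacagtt
For Rbp7, CD 3 had a mean log2 ratio of 0.04 ± 1.45 (SD, n = 5), BD 3 one of 0.41 ± 0.62 (SD, n = 5), CD 14 one of 0.17 ± 1.01 (SD, n = 6) and BD 14 one of 0.63 ± 0.51 (SD, n = 6). CD 3 rat 1 stood at 2.00 and CD 3 rat 3 at 1.18, while the other 3 CD 3 rats lay between −1.04 and −0.96. The lowest of the 22 values was −1.78, in CD 14 rat 5. Every BD 14 rat was above 0, from 0.19 to 1.57. In Cy3 the probe was not well above background on BD 14 rats 1 (1.57) and 2 (0.85) and CD 14 rat 4 (0.74). The 4 groups overlapped. The residual SD within groups was 0.95, above that of 92.2% of all probes, and the differences over all arrays were within it, from 0.13 for CD 14 against CD 3 (standard error 0.54) to 0.46 for BD 14 against CD 14 (standard error 0.51, adjusted p 0.953). With the slides taken into account the values were other. BD 14 against CD 14 was 1.15 within slide C and with the slide as a block (unadjusted p 0.125). This rests on CD 14 rat 5 at −1.78, since the other CD 14 rat of slide C, at 0.74, lay above the BD 14 mean. BD 14 against BD 3, 0.22 over all arrays, was 1.67 with the block (unadjusted p 0.101). CD 14 against CD 3 was 2.07 within slide E, with 1 array each, and 0.31 with the block. BD 3 against CD 3, 0.37 over all arrays, was −1.53 within slide B and −0.21 with the block.

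The highest Rbp7 signals came from arrays with a high share of spots well above background. The Cy5 signal was 850 in CD 3 rat 1, 375 in CD 14 rat 1, 257 in CD 14 rat 3 and 173 in BD 3 rat 5, and at most 126 on every other array. On those 4 arrays 93.6%, 90.6%, 88.8% and 92.4% of spots were well above background, against at most 77.0% on the others. Over the 22 arrays Pearson's r between this share and the log2 ratio of Rbp7 was 0.501 and Spearman's rho 0.440, and r was 0.309 without the 2 arrays farthest from the median share. Without those 2 arrays r was further from 0 for Lrat (−0.563, and −0.328 over all arrays), Rdh10 (−0.524, and 0.0504 over all arrays) and Rbp2 (0.365, and 0.454 over all arrays). The part of this share in the values of these genes was not tested. In bulk liver, fewer cells of a type and less RNA per cell cannot be told apart, for Rbp7 and for every gene here.

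Lrat (A_44_P550748, chr2:174636541-174636600, minus strand), the storage enzyme of stellate cells, had a negative log2 ratio in all 22 rats. In CD 3 its log2 ratios were −1.86, −1.82, −1.41, −1.06 and −0.91, and in BD 3 they were −1.74, −1.52, −0.24, −1.25 and −0.63. In CD 14 they ran from −2.95 over −2.06 to −1.29, and in BD 14 from −2.84 over −1.35 to −0.33. CD 14 held most of the low values, but BD 14 rat 2 was as low as the lowest CD 14 rats, and the groups overlapped. The order of the group means was BD 3 (−1.08 ± 0.63, SD, n = 5), CD 3 (−1.41 ± 0.43, SD, n = 5), BD 14 (−1.44 ± 0.85, SD, n = 6) and CD 14 (−2.08 ± 0.59, SD, n = 6). Only the step from BD 14 to CD 14 was about as large as the SDs, and it did not pass the test.

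Lrat was higher in BD 14 than in CD 14 by 0.64 (standard error 0.36, 1.55-fold, limma adjusted p 0.952), by 0.54 within slide C and with the slide as a block. CD 14 was below CD 3 by −0.67 (standard error 0.38, adjusted p 0.579), by −0.93 within slide E and by −1.1 with the block. BD 3 was above CD 3 by 0.34 (standard error 0.39, adjusted p 0.907), by 0.23 within slide B and by 0.36 with the block. BD 14 was below BD 3 by −0.37 (standard error 0.38, adjusted p 0.837), and by −0.92 with the block. Without BD 14 rat 2 the difference of BD 14 from CD 14 was 0.92, and without BD 14 rat 5 it was 0.41. A dimmer Lrat probe (A_44_P491942, chr2:174644763-174644822) was not tested, and its differences are not read beside these, since it was near background.

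Of the stellate cell markers, 12 of 13 were on the array and 9 were tested, the brightest being Col3a1. Gfap, Lum and Ngfr did not pass the detection filter, and Colec11 was not on the array. Their mean log2 ratio ran from −1.89 over a median of −1.1 to −0.52 in CD 3, from −1.38 over −0.78 to −0.57 in BD 3, from −1.63 over −0.81 to −0.72 in CD 14 and from −1.50 over −0.86 to −0.22 in BD 14. In Cy5 their summed signal had medians of 4390, 4150, 4460 and 3700 in these groups. Of the 9, 0 passed limma's adjusted test in any comparison. At an unadjusted p under 0.05 there were 2 in BD 3 against CD 3, where 7.11% of all probes were. In CD 14 against CD 3 there was 1 (10.1% of all probes), and for the change of the diet difference with time 1 (4.80%). BD 14 against CD 14 and BD 14 against BD 3 had 0 (4.60% and 7.44%). None of these markers had an unadjusted p under 0.05 there with the slide as a block. So Lrat had its lowest mean in CD 14, while the median of the stellate list was lowest in CD 3. Among the tested stellate markers only Col1a1 had its lowest mean in CD 14 (−0.38, beside −0.35 in CD 3). Whether the share of stellate cells had a part in the Lrat values was not tested.

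Rdh10 (A_44_P296924, chr5:2286375-2286434, minus strand) encodes the enzyme that oxidizes retinol to retinal. In CD 3 its log2 ratios were 1.41, 0.25, 0.33, 1.37 and 0.70, and in BD 3 they were 0.25, 0.51, 0.38, 0.28 and 0.68. In CD 14 they ran from 0.28 over 0.38 to 0.59, and in BD 14 from 0.07 over 0.32 to 0.63. All 22 log2 ratios were positive, and the values were close together except for CD 3 rats 1 and 4. These 2 arrays stood apart in other measures too. CD 3 rat 1 had the highest share of spots well above background (93.6%), 4.44% non-uniform spots and the lowest median r with the other arrays (0.09). CD 3 rat 4 had the lowest share (52.4%), a median r of 0.149 and the lowest mean log2 ratio of hepatocyte markers (−1.90). The part of this in the Rdh10 values was not tested. Its residual SD of 0.30 was above that of only 15.4% of all probes. BD 3 was below CD 3 by −0.39 (standard error 0.21, 0.761-fold, adjusted p 0.755), by −1.03 within slide B and by −0.66 with the slide as a block. CD 14 was below CD 3 by −0.41 (standard error 0.20, adjusted p 0.507), by −0.11 within slide E and by −0.60 with the block. Both differences share the CD 3 rats and shrank without CD 3 rat 1, to −0.24 and −0.26. They rest about as much on CD 3 rat 4, at 1.37. CD 3 rats 2, 3 and 5, at 0.25, 0.33 and 0.70, lay near the BD 3 and CD 14 values. At 14 months the diets differed by −0.10 (standard error 0.19), over all arrays and within slide C alike.

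Aldh1a1 (A_64_P067659, chr1:223773152-223773211, plus strand) encodes a retinal dehydrogenase that makes retinoic acid. In CD 3 its log2 ratios were 1.11, 0.36, 0.11, 0.86 and 0.94, and in BD 3 they were −0.63, −0.26, 1.18, 1.37 and 1.53. In CD 14 they ran from −0.26 over 0.99 to 1.97, and in BD 14 from 0.58 over 1.55 to 1.88. BD 3 split in 2, with the 2 rats of slide B below 0 and the 3 rats of slide A above 1, and CD 14 rat 4 of slide C was as low as the former. The mean was highest in BD 14, 1.42 ± 0.51 (SD, n = 6), and lowest in BD 3, 0.64 ± 1.01 (SD, n = 5), where the spread was widest. BD 14 was above BD 3 by 0.78 (standard error 0.41, 1.72-fold, limma adjusted p 0.702). It was 1.60 with the slide as a block, 0.46 without BD 3 rat 1 and 1.0 without BD 3 rat 5, and no slide held both groups.

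The diet differences of Aldh1a1 were larger within slides than over all arrays. BD 14 was above CD 14 by 0.43 (standard error 0.39, adjusted p 0.952) over all arrays, and by 1.21 within slide C and with the block. Within that slide the 6 BD 14 rats lay between 0.58 and 1.88 and the 2 CD 14 rats at −0.26 and 0.69. BD 3 against CD 3 gave −0.04 (standard error 0.43, adjusted p 0.991) over all arrays, −1.56 within slide B and −1.07 with the block. On the CD 3 side the slide B value rests on CD 3 rat 1 alone, and the blocked value on CD 3 rats 1 and 5. The change of the diet difference between 3 and 14 months was 0.46 over all arrays (standard error 0.58, adjusted p 0.999) and 2.28 with the block. None of the blocked values came with an adjusted p under 0.05 in limma, and the unadjusted p with the block were 0.00477 for BD 14 against CD 14, 0.028 for BD 3 against CD 3, 0.00557 for BD 14 against BD 3 and 0.0011 for the change with time. The shares of all probes with such a p under 0.05, given above, were 4.64% to 11.1%.

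Dhrs9 (A_64_P016347, chr3:51543480-51543539, plus strand) encodes a dehydrogenase that acts on retinol among other substrates. It was well above background on 2 CD 3, 4 BD 3, 2 CD 14 and 2 BD 14 arrays, and its processed Cy5 signal was 3.4 to 56.2. The highest signals, 56.2, 38.4 and 30.5, came from CD 3 rat 1, CD 14 rat 1 and CD 14 rat 3, the same arrays that were highest for Rbp7. Its log2 ratios ran from −1.24 to 1.38, and on CD 14 rat 6 both channels held surrogate values for lack of signal. Its differences between groups are not given, since it was near background.

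Cyp26a1 (A_43_P13109, chr1:241945651-241945710) was the dimmest of the 8 genes tested, and its ratios and folds are of limited precision. In CD 3 its log2 ratios were −1.70, 0.02, 0.72, −0.14 and 1.27, and in BD 3 they were −0.54, 0.62, −0.60, 1.55 and 0.54. In CD 14 they ran from −1.75 over −0.71 to −0.18, and in BD 14 from −1.01 over 0.18 to 2.35. All 6 CD 14 rats had a negative log2 ratio. Of the BD 14 rats, rats 1, 2 and 3 were above every CD 14 rat, at 0.61, 2.35 and 1.64, and rats 4, 5 and 6 lay inside the CD 14 range. CD 3 had a mean of 0.03 ± 1.12 (SD, n = 5), BD 3 one of 0.31 ± 0.90 (SD, n = 5), CD 14 one of −0.84 ± 0.70 (SD, n = 6) and BD 14 one of 0.51 ± 1.28 (SD, n = 6). The largest step between neighbouring means, from CD 3 down to CD 14, lay between the SDs of these groups, and the other steps were smaller than every SD.

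BD 14 was above CD 14 by 1.35 (standard error 0.55, 2.56-fold, 95% confidence interval 0.21 to 2.50). The unadjusted limma p was 0.0228 and the adjusted p 0.952, so the difference failed the correction over all probes. It was 1.36 within slide C, with 6 BD 14 rats against CD 14 rats 4 and 5, and 1.36 with the slide as a block (unadjusted p 0.0917). It was 0.99 without BD 14 rat 2 (unadjusted p 0.0758), and the unadjusted p was also above 0.05 without BD 14 rat 3 (0.0610) and without CD 14 rat 3 (0.0558). With normexp background correction (offset 50) and loess together the difference was 0.20 (unadjusted p 0.141). The processed Cy5 signal of this probe, 5.68 to 44.0, lay below that offset, which presses its ratios toward 0. This setting therefore cannot show whether the difference holds. Other settings gave larger values, 1.66 without BD 14 rat 5 (unadjusted p 0.00664) and 1.74 in quantile-normalized Cy5 alone, the channel the detection filter used, for which no p is given.

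The processed Cy5 signal of Cyp26a1 was 7.99 to 16.7 with a median of 11.9 in CD 14, and 18.5 to 44.0 with a median of 22.2 in BD 14. The probe passed the detection filter only through BD 14, so a high Cy5 signal there was needed for it to be tested at all, and this gap is a description with no test. In Cy3, the reference, Cyp26a1 was well above background on 2 BD 14 and 3 CD 14 arrays. So on most arrays of these groups the lower part of the ratio was near background. The 2 BD 14 arrays were rats 4 and 5, with log2 ratios of −0.27 and −1.01. BD 14 rats 1, 2 and 3, the rats above every CD 14 rat, all had Cy3 near background. The p-values of this comparison are to be read with the choice by the detection filter in mind.

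The remaining differences of Cyp26a1 were smaller or less steady. CD 14 was below CD 3 by −0.88 (standard error 0.58, adjusted p 0.650), by −1.53 within slide E and by −0.69 with the block. BD 3 was above CD 3 by 0.28 (standard error 0.60, adjusted p 0.955), by 1.74 within slide B and by 1.11 with the block. Without CD 3 rat 1, the lowest of its group, BD 3 against CD 3 was −0.15. In Cy3, Cyp26a1 was well above background on 1 CD 3 and 1 BD 3 array, which limits the precision of these values. The diet difference was larger at 14 than at 3 months by 1.07 (standard error 0.82, adjusted p 0.999), and by 0.25 with the block, so a difference between the times was not shown.

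The Cyp26a1 probe and promoter are shown because a response to retinoic acid is known for this gene and because its strand is in question. The probe, whose rn4 position in the files is on the minus strand, reads as follows:
Cyp26a1 probe: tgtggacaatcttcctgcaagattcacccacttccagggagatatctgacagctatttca
RefSeq promoters of GRCr8, 250 bases before to 50 after each gene's start, were found for 8 of the 9 genes, all but Rdh10. They were searched on both strands for the 6-base motifs AGGTCA and AGTTCA, alone and as direct repeats spaced by 5, 2 or 1 bases. Repeats spaced by 5 occurred in 10 of 33469 promoters (0.0299%), and that of Cyp26a1 was 1 of them. Its repeat lay on the strand opposite to the gene, at chr1:244883730-244883746, 92 to 76 bases before the start:
Cyp26a1 repeat: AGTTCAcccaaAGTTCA
Capitals mark the motifs, here and in the promoter (chr1:244883572-244883871, plus strand), which is written along the gene, so that they appear as TGAACT:
Cyp26a1 promoter: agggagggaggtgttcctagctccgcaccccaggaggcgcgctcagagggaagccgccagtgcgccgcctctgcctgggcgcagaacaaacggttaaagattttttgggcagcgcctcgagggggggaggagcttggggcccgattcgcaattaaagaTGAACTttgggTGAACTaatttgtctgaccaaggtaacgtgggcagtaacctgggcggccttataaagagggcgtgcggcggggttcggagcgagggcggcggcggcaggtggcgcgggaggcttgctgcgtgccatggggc
The strand of the gene in GRCr8 is plus, and that of the probe in rn4 is minus, which was seen for none of the other 7 genes with a promoter. Read as printed, the probe has a frame open for 15 codons up to a stop codon, which as background reads as the known end of the Cyp26a1 protein. The printed sequence thus runs along the gene's own transcript. Why the files place it on the minus strand could not be checked without the rn4 genome.

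Repeats spaced by 2 occurred in 17 promoters (0.0508%) and repeats spaced by 1 in 32 (0.0956%), with 0 of the 8 genes in either. A single motif, which the repeats also contain, occurred in 9322 promoters (27.9%), among them those of Rbp2, Cyp26a1 and Dhrs9. A match is a description, not a site or a cause, and no binding was measured in these rats.

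The 8 genes did not move as 1 block from rat to rat. Of their pairs, Rbp2 and Ttr had the highest Pearson's r over the 22 arrays, 0.662 (Spearman's rho 0.674), followed by Rbp4 and Ttr with 0.511 (rho 0.451). The pair of Rbp2 and Ttr did not hold within slides, where r was 0.0163 over the 6 arrays of slide A and 0.0477 over the 8 of slide C. For Rbp4 and Ttr r was −0.0686 on slide A and 0.271 on slide C. Cyp26a1 and Rdh10 had r −0.323 (rho −0.203), the lowest of all pairs, with 0.240 on slide A and −0.694 on slide C. Lrat and Cyp26a1 had r −0.0777, with 0.291 on slide A and −0.635 on slide C.

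The genes most like each member over the 22 arrays were sought among 10205 genes by Pearson's r, as a description. The values within slides come from the same arrays, so they are no second test. Rbp2 was most like Pyy (0.904) and Mmp15 (0.888), and within slides r was 0.941 and 0.885 on slide A and 0.951 and 0.933 on slide C. Cyp26a1 was most like Tpp2 (0.802), Pgam5 (0.781) and Tmed5 (0.756), with r of 0.468, 0.770 and 0.763 on slide A and 0.976, 0.877 and 0.959 on slide C. Lrat was most like Pierce2 (0.763), Cyp2j4 (0.753) and Nr1i3 (0.749), the last being the nuclear receptor CAR of hepatocytes, with 0.871, 0.856 and 0.911 on slide A and 0.936, 0.685 and 0.757 on slide C. Rdh10 was most like Mrpl32 (0.850), Pacs1 (0.830) and Slc31a1 (0.817), with 0.597, 0.855 and 0.397 on slide A and 0.573, 0.524 and 0.606 on slide C. Rbp7 was most like Plaur (0.752), Tas1r3 (0.742) and Zfyve9 (0.738), with 0.605, 0.915 and 0.636 on slide A and 0.657, 0.848 and 0.864 on slide C. Rbp4 was most like Ftl1 (0.734), Diablo (0.696) and Ruvbl1 (0.684), with 0.615, 0.297 and −0.0968 on slide A and 0.880, 0.925 and 0.784 on slide C. For Aldh1a1 they were Gpx1 (0.699), Gas2 (0.689) and Cpne4 (0.682), with 0.0863, −0.0855 and 0.600 on slide A and 0.861, 0.553 and 0.676 on slide C. For Ttr they were Wdr83os (0.753), Tmub2 (0.749) and Sec31a (0.744), with 0.715, 0.026 and 0.812 on slide A and 0.490, 0.444 and 0.423 on slide C.

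Of 45 other genes of retinoid uptake, transport, metabolism and response, 44 were on the array, all but Rarb, and 37 were tested. In limma 0 of the 37 passed the adjusted test in any comparison. At an unadjusted p under 0.05 there was 1 in BD 3 against CD 3, 1 in BD 14 against CD 14, 3 in CD 14 against CD 3, 2 in BD 14 against BD 3 and 0 for the change of the diet difference with time. Their median differences were 0.15, 0.16, 0.17, 0.03 and 0.02. Like the member genes, these counts lay near the shares of all probes.

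Of these genes, Cyp2c22, a cytochrome P450 known to act on retinoic acid, was above CD 14 in BD 14 by 1.08 (standard error 0.51, adjusted p 0.952), and by 1.57 within slide C and with the block. Stra6, the receptor that takes up retinol from Rbp4, was above BD 3 in BD 14 by 1.12 (standard error 0.37, adjusted p 0.447) and by 0.46 with the block. The lipases Lpl and Lipe, which act on retinyl esters among other lipids, were above CD 3 in CD 14 by 1.16 (standard error 0.47, adjusted p 0.405) and 0.80 (standard error 0.35, adjusted p 0.446). Within slide E these were 0.28 and −0.61, and with the block 0.42 and 0.58. In CD 3, Lpl was well above background on 4 of 5 arrays and Lipe on 3 of 5, so both passed the filter only through other groups. Their median Cy5 signals were 26.4 and 7.68 in CD 3, and 46.3 and 21.7 in CD 14. Stra6 had 37.5 in BD 3 and 42.1 in BD 14. Such dim signals limit the precision of these differences. Lipe was also above BD 3 in BD 14 by 0.84 (adjusted p 0.602), which turned to −0.20 with the block. Dhrs4 was above CD 3 in BD 3 by 0.84 (adjusted p 0.684), by 0.19 within slide B and by 0.00 with the block.

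The largest differences of these other genes came from probes with a wide spread. The probe that the files name Dhrs7 and RefSeq names Dhrs7l1 was below CD 3 in CD 14 by −2.77 (standard error 1.05, adjusted p 0.374), by −2.67 within slide E and by −2.14 with the block. Its groups did not overlap there, as was so for 0.515% of all probes, and 37 genes of this list were looked at. The same probe was the lowest of the list in BD 3 against CD 3 (−1.47, standard error 1.10) and in BD 14 against BD 3 (−1.32, standard error 1.05). Aldh1a7, a relative of Aldh1a1, was the highest of the list in BD 3 against CD 3 (0.97, standard error 0.89), CD 14 against CD 3 (1.75, standard error 0.85) and BD 14 against BD 3 (1.38, standard error 0.85). Rarres1 was the lowest in BD 14 against CD 14 (−0.53, standard error 0.38). With the slide as a block, the Dhrs7l1 probe was −0.88 in BD 3 against CD 3 and −1.48 in BD 14 against BD 3. Aldh1a7 was then 0.83, 0.83 and 1.05 in the comparisons named, and Rarres1 was −0.58. Within slide E, Aldh1a7 was 1.24 in CD 14 against CD 3.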

How the data were processed

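The processed intensity values and the ratios of every spot were made by the authors with Agilent Feature Extraction, which subtracted the background and normalized both dyes (linear Lowess, array by array). The deposited log10 values divide the processed Cy5 by the processed Cy3 signal, per the file headers. The headers give version 10.10.1.1 and the labels 10.7.3.1, and the probe positions are of rn4. The labels give Cy5 for the rat on every array while the methods name a dye per diet, and the labels were followed.

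The ratios were turned to log2 and averaged over the spots of a probe, without control spots and those flagged non-uniform. The test took the 19434 of 30367 probes that, in 1 group or more, were well above background throughout. The brightest probe of a gene stands for it. Gene names came from the files, and 18005 probes took theirs from the RefSeq table of GRCr8.

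The 4 groups were fitted with limma 3.58.1 in R 4.3.3 (group means, eBayes, 95% confidence intervals), with p-values adjusted by Benjamini-Hochberg over all 19434 probes and a threshold of 0.05. Loading, sequences and plots used Python 3.11.15, numpy 2.4.6, pandas 2.3.3 and matplotlib 3.10.9. The members and lists were chosen with earlier results of these data known.

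Named are the 9 genes, and the other retinoid genes with an unadjusted p under 0.05 or at an extreme of a comparison. Also named are the 2 or 3 genes most like each member, and the brightest gene and the untested genes of each marker list. Genes named outside this were chosen after their values were seen.

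Alternatives were normexp with loess, Cy5 alone with quantile normalization, arrays centred on their medians, no filter and a strict filter (13860 probes), non-uniform spots kept, array weights, a block for the slide or for the rat's number, differences within a slide, only the groups compared, the methods' analysis of variance with Tukey's HSD, another probe of the gene, and each array left out. The data without 2 arrays of many non-uniform spots were an alternative chosen after seeing the data. The study's real-time PCR, its pathway networks and the authors' deposited table of significant entries, which holds no member, were not analysed here.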

Additional observations from a re-analysis of the deposited data

Results flagged for a closer look

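Of 40 sets of arrays checked (10 probes in 4 groups), 2 had an array far from the others, and chance gives about 1 in 20. Rbp7 in CD 14 had its lowest log2 ratio, −1.78, in rat 5, and the gap to the next rat was 0.695 of the range of the group. Dhrs9 in CD 14 had its lowest log2 ratio, −1.24, in rat 4, with a gap of 0.634 of the range. Both arrays lay on slide C. Without CD 14 rat 5 the difference of Rbp7 between BD 14 and CD 14 was 0.07 in place of 0.46. The cause of either value was not tested.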

How the results depend on the processing

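Under every alternative with an adjusted limma test, none of the retinoid genes it covered passed, in any comparison. Tukey's test called 0 of the 8, and the differences within a slide had no test. The counts over all probes, 0 in each comparison, did move. BD 3 against CD 3 had 217 probes past the threshold in Cy5 alone, 1 with normexp and loess, 2 with arrays centred on their medians and 2 without CD 3 rat 1 and CD 14 rat 1, the 2 arrays where over 1% of spots were non-uniform. BD 14 against CD 14 had 5 with array weights. CD 14 against CD 3 had 13 in Cy5 alone. BD 14 against BD 3 had 6 in Cy5 alone, 2 with the strict filter, 99 with array weights and 22 with only the groups compared. The change with time had 1 in Cy5 alone, and Tukey's test gave 1 in each of the last 3 pairwise comparisons.

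With each array left out in turn, BD 3 against CD 3 had 0 to 93 probes past the threshold, 93 without CD 3 rat 5, 4 without CD 3 rat 1 and 1 without CD 3 rat 3 or CD 14 rats 1, 2, 3 or 4. CD 14 against CD 3 had 0 to 205, 205 without CD 3 rat 5 and 2 without CD 14 rat 1. BD 14 against BD 3 had 0 to 5, 5 without CD 3 rat 4, 2 without BD 14 rat 2 and 1 without CD 14 rat 2, CD 14 rat 6 or BD 14 rat 5. BD 14 against CD 14 had 0 to 1, the latter without CD 3 rat 2, CD 14 rat 1 or BD 14 rat 2. Of 880 differences of the retinoid genes, 38 turned in sign. In BD 3 against CD 3 Aldh1a1 ran from −0.26 to 0.28, Cyp26a1 from −0.15 to 0.59, Rbp4 from −0.01 to 0.24 and Ttr from −0.18 to 0.17. In CD 14 against CD 3 Rbp2 ran from −0.22 to 0.17, Rbp7 from −0.14 to 0.62 and Ttr from −0.17 to 0.23. Rbp4 ran from −0.22 to 0.03 in BD 14 against CD 14, Cyp26a1 from −0.17 to 0.51 in BD 14 against BD 3, and Rbp7 from −0.40 to 0.36 for the change with time.

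Of 483 differences of the retinoid genes under other settings, 48 turned in sign. With normexp and loess, Rbp7 was −0.10 in BD 3 against CD 3, −0.08 in BD 14 against BD 3 and −0.29 in CD 14 against CD 3, and Ttr was −0.03 in CD 14 against CD 3. In Cy5 alone, Ttr was 0.06 in BD 3 against CD 3 and −0.03 in CD 14 against CD 3, and Rbp4 was 0.10 in BD 14 against CD 14 and 0.01 for the change with time. There Rbp2 was 0.45 and Rbp7 −0.44 in CD 14 against CD 3, Rbp7 −0.47 and Lrat 0.02 in BD 14 against BD 3, and Rbp7 −0.03 for the change with time. With centred arrays Ttr was −0.02 in CD 14 against CD 3. With array weights Ttr was −0.08 there, Rbp4 −0.10 and Cyp26a1 −0.17 in BD 3 against CD 3, and Rbp4 0.01 for the change with time. The dimmer Lrat probe, near background, gave −0.32 in BD 3 against CD 3 and 0.87 in BD 14 against BD 3. Without CD 3 rat 1 and CD 14 rat 1, Rbp4 was −0.01, Aldh1a1 0.07, Cyp26a1 −0.15 and Ttr 0.05 in BD 3 against CD 3, Rbp2 0.08 in CD 14 against CD 3, and Rbp7 −0.38 for the change with time.

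With the slide as a block, Rbp2 was −0.32 and Rbp7 −0.21 in BD 3 against CD 3, and Rbp2 was 0.52, Rbp4 0.39 and Ttr 0.14 in BD 14 against CD 14. Rbp4 was 0.23 and Aldh1a1 −0.68 in CD 14 against CD 3. In BD 14 against BD 3, Lipe was −0.20, Rbp2 0.62, Rbp4 0.26, Cyp26a1 −0.44 and Ttr 0.35. For the change with time Rbp2 was 0.84, Rbp4 0.03 and Ttr 0.31. Within slide B, Rbp2 was −0.52 and Rbp7 −1.53 in BD 3 against CD 3. Within slide C, Rbp2 was 0.52, Rbp4 0.39 and Ttr 0.14 in BD 14 against CD 14. Within slide E, Rbp2 was 0.04, Aldh1a1 −0.03 and Lipe −0.61 in CD 14 against CD 3. With the rat's number as a block, Ttr was −0.07 in CD 14 against CD 3. The numbers do not pair the rats, since arrays of equal number had a median r of −0.0168 over 31 pairs, beside −0.0239 for the others.

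The causes of these changes were not tested. The strict filter gave no value for Rbp7 and Cyp26a1, no slide held both BD 14 and BD 3, and the authors' deposited table holds no member. Signal near background limits Cyp26a1, Dhrs9 and Rbp7 most.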

Other observations

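The other marker lists give the cell make-up beside which the retinoid genes were read, and none of their genes passed limma's adjusted test in any comparison. Macrophage and leukocyte markers had the most genes with an unadjusted p under 0.05 in a comparison. Of their 9 genes 8 were tested, all but Cd3e, with Clec4f the brightest. Of these, 4 had an unadjusted p under 0.05 in CD 14 against CD 3, all higher in CD 14, beside 10.1% of all probes. The median difference of all 8 was 0.92. The 4 were Ptprc (1.34), Cd68 (1.19), Cd163 (1.14) and Clec4f (1.34). With the slide as a block these were 0.31, 0.34, 0.39 and 0.69, none with an unadjusted p under 0.05, and within slide E, which held 1 array of each group, 0.21, 0.24, 0.10 and 0.75. Slide D held 3 of the 5 CD 3 arrays and no other. The summed Cy5 signal of the list was highest in CD 14, with a median of 12800, beside 4050 in CD 3 and, on the BASE-diet, 7990 at 3 and 7860 at 14 months. In that comparison the median of the 8 retinoid genes was −0.10.

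The counts that follow stand beside shares of all probes of 7.11% in BD 3 against CD 3, 4.60% in BD 14 against CD 14, 10.1% in CD 14 against CD 3, 7.44% in BD 14 against BD 3 and 4.80% for the change of the diet difference with time. Hepatocyte markers had 2 of 10 genes with an unadjusted p under 0.05 in CD 14 against CD 3, Hpx (1.06) and Fgb (0.78), and 0 in the other comparisons. Endothelial markers had 1 of 7, Lyve1 in CD 14 against CD 3 (1.53), with Kdr the brightest, Tek not tested and Stab2 not on the array. Red cell markers had 2 of 4 in BD 3 against CD 3, Hbb (−1.19) and Slc4a1 (−0.96), with Hba1 the brightest. Adipocyte markers, where Adipoq, Lep and Plin1 were not tested, had a median difference of 1.17 over 3 genes in CD 14 against CD 3, the largest of any list. At an unadjusted p under 0.05 they had Cfd, the brightest, in that comparison (1.17) and in the change of the diet difference with time (−1.45), and Fabp4 in BD 14 against BD 3 (2.12). Bile duct markers (4 tested, without Cftr and Sox9, brightest Epcam), intestinal markers (3 tested) and exocrine pancreas markers (2 tested, without Amy2a3, Cela1, Cpa1, Pnlip and Prss1, brightest Ctrb1) had 0 in every comparison. In the stellate list the genes at an unadjusted p under 0.05 were Reln in BD 3 against CD 3 (1.16) and in CD 14 against CD 3 (0.94), and Pdgfrb in BD 3 against CD 3 (0.63) and in the change with time (−1.01). With the slide as a block, the genes of this paragraph that still had an unadjusted p under 0.05 were Lyve1 (1.85), Hbb (−1.68) and Cfd for the change with time (−2.22).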
